A study of Drosophila melanogaster with 39 samples.

Results

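The genes described here are 38 Drosophila melanogaster genes of DNA replication and the cell cycle. They were chosen by name, but with earlier results of these data known. They were found through the CG number carried by each probe. All 38 had a probe, and their 49 probes are part of 16361 probes for 11436 named genes. By role, 12 belong to origin licensing: they encode the replicative helicase, proteins that load it onto origins, or the inhibitor geminin. Another 3 act at the replication fork, 2 make deoxynucleotides and 9 act at the step from G1 to S phase. A further 5 act at the step from G2 to mitosis and 7 in mitosis itself. By the current annotation 7 lie on chromosome arm 2L, 13 on 2R, 6 on 3L, 8 on 3R and 4 on X.

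In a dividing cell the origin recognition complex marks the places where replication can start, dup (the fly Cdt1) brings the ring-shaped MCM helicase to them, and geminin holds dup back so that no origin fires again in the same cycle. Cyclin D with Cdk4 and cyclin E with Cdk2 release the transcription factor E2F and its partner Dp from the retinoblastoma protein Rbf, and E2F then turns on many genes of replication. Cdk1 with cyclins A and B, set free by the phosphatase stg (string, the fly Cdc25), starts mitosis. In imaginal discs, the larval sacs that become adult wings and legs, these genes serve the growth of the disc, and transcription of stg is known to set the time of mitosis.

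The arrays addressed transdetermination, the switch of leg disc cells to a wing fate under the signalling protein Wingless (Wg). Each of 39 spotted arrays compared 2 samples of RNA that had gone through 2 rounds of amplification, with Cy3 on one and Cy5 on the other. Wild-type samples came from male wandering larvae of the strain Oregon R. On 9 arrays a wing disc was paired with a leg disc from the same animal, with 3 arrays for each of the 3 leg segments. Prothoracic leg discs (segment 1) were set against a reference on 4 arrays. The reference was amplified RNA pooled from the leg discs of all 3 segments of both sexes. Wg-expressing discs carried y, w and hs-flp together with vgBE-GAL4, UASGFP and the flip-out transgene Actinc5 FRT y+ FRT wg+, and expressed wg from an actin promoter after heat shocks at 60 and 72 h after egg deposition. They were taken 3 days after the heat shocks, had Wg in over 90 percent of their cells, and came from larvae whose metamorphosis was delayed. Whole prothoracic discs of this kind were set against the reference on 6 arrays. Transdetermining (TD) cells, cut out by the green fluorescence of the vg boundary enhancer reporter, were hybridised with D(wg), the remaining dorsal cells of such discs (3 arrays), or with V(wg), their ventral cells (5 arrays). A further 3 arrays compared D(wg) with V(wg). For these comparisons pieces of 4 to 8 discs were pooled. For wild-type discs D(wt) stands for dorsal and V(wt) for ventral cells, and 2 arrays compared TD cells with D(wt) and 3 compared D(wt) with V(wt). Fragments of mesothoracic (segment 2) leg discs that had regenerated for 3 to 5 days in the abdomen of adult females were compared with the reference on 4 arrays. No heat shock is given for the wild-type samples, the fragments or the reference, so Wg cannot be told apart from heat shock or stock where these are compared with Wg-expressing discs. In all these pieces of tissue, fewer cells of a type and less RNA per cell cannot be told apart.

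The arrays held values for 2969 to 14650 probes, and the 3 arrays with the fewest were of regenerating fragments. Every value below is a log2 ratio, positive where the sample named first held more transcript, after each array was centred on its median. The labels do not state the base of the logarithm. Base 2 was taken from the size of the values, and the folds rest on it. The centring moved the arrays by -0.11 to 0.21. A fitted value is given with its standard error (SE), which rests on the spread over all 39 arrays, and n is the number of arrays. A gene is called higher or lower where limma's moderated test gave a p of 0.05 or less after Benjamini-Hochberg adjustment over all probes of the comparison. Counts at an unadjusted p under 0.05 are given for the members alone, without the share of all probes at that threshold. The fitted values allow for the dye orientation, so they differ slightly from the mean of the array values beside them. Wing discs stood apart from leg discs in the wing disc markers (array medians of 2.38 to 3.59) and leg disc markers (-2.83 to -0.37). Of the 2 wg probes, 1 was higher in Wg-expressing discs than in the reference (1.36 ± 0.22, adjusted p = 4.5e-05 by limma) and the other, at -0.64, was not called.

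Judged by the probe with the most values, 25 of the 38 genes were called in at least 1 of 8 comparisons. These are the comparisons with a settled direction, and 13 genes were called in none of them. The share of all genes called in at least 1 of them is not given here. The map of fitted values shows where the calls lie. They are most frequent where TD cells were compared with other cells of the same discs and where regenerating fragments were compared with the reference. Over all probes 18 percent were called for TD against D(wg), 13.4 percent for TD against V(wg) and 40.5 percent for fragments. In fragments the share of members called is close to that of all probes.

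**Figure D1:**
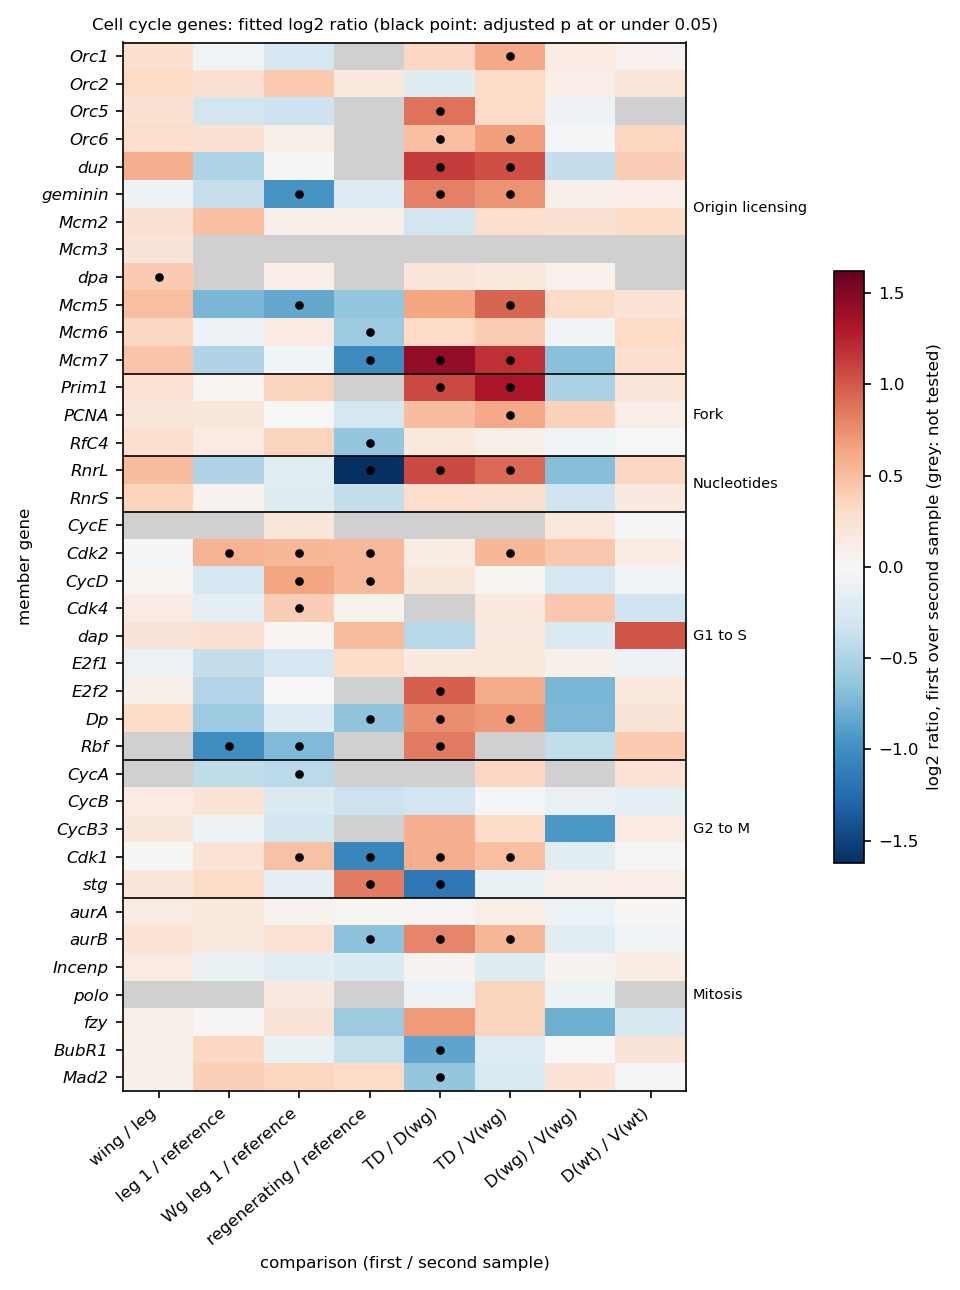
Fitted log2 ratio of each of the 38 genes (rows, grouped by role) in 8 comparisons (columns). Red is more transcript in the first-named sample, blue less, grey not tested, and a black point marks a limma adjusted p of 0.05 or less. All calls in TD cells are red except stg, BubR1 and Mad2 against D(wg), while D(wg) against V(wg) and D(wt) against V(wt) have no point.

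TD cells held more transcript of Mcm7, dup, Prim1, RnrL and other replication genes than D(wg) cells, and less of stg and of 2 spindle checkpoint genes. Of 34 genes tested against D(wg), 12 were higher and 3 lower. Over all probes 18 percent were called in this comparison, 10.4 percent higher and 7.6 percent lower. The median of the 34 genes was 0.33, against 0.04 for all named genes tested. Fitted values above 0 were found for 26 of the 34 genes and for 3818 of 7065 named genes.

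Among the genes of origin licensing 5 of 11 tested were higher in TD cells. The helicase subunit gene Mcm7 gave 1.18, 1.13 and 1.89 on the 3 arrays, a fitted value of 1.43 ± 0.34 (SE, n = 3, adjusted p = 0.0052), or 2.70-fold. The helicase loader gene dup gave 1.28, 0.71 and 1.28 (1.13 ± 0.29, adjusted p = 0.0094). All 3 arrays were thus well above 0 for both genes. geminin, whose protein restrains dup, gave 0.95, 0.06 and 1.25 (0.82 ± 0.29, adjusted p = 0.046), and array 2 was near 0. The origin recognition genes Orc5 (0.88 ± 0.26, with values on 2 of 3 arrays) and Orc6 (0.49 ± 0.16) were also higher. Orc2 (0.26, -0.94 and 0.09, fitted -0.20) and Mcm2 (0.39, -1.05 and -0.20, fitted -0.30) were not called. Array 2 was the lowest for both.

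At the fork, Prim1, which encodes a subunit of the primase that starts each new strand, gave 1.18, 0.49 and 1.43 (1.06 ± 0.23, adjusted p = 0.0033). RnrL, the large subunit gene of ribonucleotide reductase, which makes deoxynucleotides, gave 1.32, 0.88 and 1.03 (1.07 ± 0.28, adjusted p = 0.0091). Every array was above 0 for both. The sliding clamp gene PCNA, with 0.76, 0.20 and 0.46, missed the threshold (0.50 ± 0.21, adjusted p = 0.093 by limma), as did the small reductase subunit gene RnrS (0.28 ± 0.21). The E2F module included 3 further calls, all higher. They were E2f2, which encodes the repressing E2F (0.96 ± 0.26), its partner gene Dp (0.76 ± 0.27) and Rbf (0.85 ± 0.23), while the activator gene E2f1 stood at 0.16 ± 0.22.

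The genes of mitosis and its entry divided. Cdk1, the mitotic kinase gene, gave 0.58, 0.27 and 0.80 (0.58 ± 0.17, adjusted p = 0.016 by limma) and was higher. aurB, the kinase gene of the chromosomal passenger complex, was higher by each of its 3 probes (0.79 ± 0.21 for the probe with the most values, 0.71 and 0.74 for the others). stg was lower, at -0.41, -2.51 and -0.60 (-1.16 ± 0.37, adjusted p = 0.028). The spindle checkpoint genes BubR1 (-0.53, -1.80 and -0.27, fitted -0.86 ± 0.25) and Mad2 (-0.60, -1.29 and -0.32, fitted -0.63 ± 0.22) were lower too. All 3 arrays were below 0 for these 3 genes, with array 2 far below the others. Without array 2 none of the 3 was called (stg -0.51, BubR1 -0.40, Mad2 -0.46), and the other 2 Mad2 probes were not called with all arrays (-0.45 and -0.52). The mitotic cyclin genes CycB (-0.31 ± 0.22) and CycB3 (0.59 ± 0.34) and the kinase genes aurA (0.05 ± 0.17) and polo (-0.10 ± 0.14) were not called.

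With 3 arrays these calls leaned on each of them. Without array 1, 2 or 3 the count of called genes went from 15 to 7, 5 and 3, and no gene was called whichever array was left out, although the values of those tested stayed on the same side of 0. Orc5 could not be tested without array 1 or 3. With the 3 arrays fitted alone and the dye term left out as well, 7 genes were called, all higher. With the values as deposited, without centring, 9 were higher and 3 lower, and the share of higher among all calls of the comparison went from 57.8 to 46.1 percent.

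The same cells set against ventral cells of the discs gave a count in 1 direction only. Of 35 genes tested against V(wg), 13 were higher and none lower, where 13.4 percent of all probes were called, 6.87 percent higher and 6.57 percent lower. The median was 0.33, against -0.01 for all named genes tested, and 30 of 35 genes had fitted values above 0. At an unadjusted p under 0.05 there were 17 genes, all above 0, with no share of all probes at that threshold to set beside them. The 2 comparisons share the kind of cell on their first side, so their values are given side by side and not as independent evidence.

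Prim1 was the most clearly separated, at 1.90, 1.43, 1.30, 0.94 and 0.97 on the 5 arrays (1.33 ± 0.18, n = 5, adjusted p = 1.1e-05 by limma), or 2.51-fold. Mcm7 gave 2.33, 1.38, 0.87, 0.81 and 0.46 (1.19 ± 0.27, adjusted p = 0.0029), and dup 2.21, 1.14, 0.79, 0.50 and 0.47 (1.04 ± 0.23, adjusted p = 0.0025). All arrays were above 0 for these 3 genes, and array 1 was the highest. RnrL gave 1.66, 1.09, 0.86, 0.57 and 0.42 (0.92 ± 0.22, adjusted p = 0.0046). Orc1, the largest subunit gene of the origin recognition complex, gave 0.93, 0.67, 0.45, 0.65 and 0.24 (0.62 ± 0.14, adjusted p = 0.0049), again with every array above 0.

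Orc6 gave 1.21, 0.91, 0.76, -0.07 and 0.36 (0.68 ± 0.12, adjusted p = 0.00062 by limma), so that array 4 did not share the direction. The helicase gene Mcm5 gave 0.43, 1.30, 1.33, 1.10 and 0.49 (0.95 ± 0.32, adjusted p = 0.042). That call ended without any single array (0.83 to 1.11). PCNA ranged from 0.00 to 1.64 (0.62 ± 0.16) and was not called without array 2 (0.36). geminin ranged widely, at 1.37, 1.64, 0.64, -0.41 and 0.20 (0.73 ± 0.22, adjusted p = 0.027 by limma), and was not called without array 1, 2 or 3 (0.53 to 0.70). The remaining calls were Cdk2, the S phase kinase gene (0.54 ± 0.16), Dp (0.70 ± 0.21), Cdk1 (0.48 ± 0.13) and aurB (0.54 ± 0.17). Cdk2 was above 0 on all 5 arrays (not called without array 1, 2 or 4, at 0.51 to 0.54), whereas Cdk1 and aurB each had 1 array below 0. stg (-0.11 ± 0.29), BubR1 (-0.21 ± 0.19) and Mad2 (-0.24 ± 0.17), called lower against D(wg), were not called against V(wg). Of the 7 mitosis genes tested, aurB was the only call.

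The count against V(wg) went from 13 to 4 without array 1, when dup (0.75), Mcm7 (0.90) and RnrL (0.71) were among the calls that ended, and to 7 without array 2. Orc1, Orc6 and Prim1 were called whichever array was left out. With the 5 arrays fitted alone and without the dye term 5 genes were called, all higher. On the 5 arrays the median of the measured members lay between 0.20 and 0.45, and on the 3 arrays against D(wg) between 0.06 and 0.56.

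**Figure D2:**
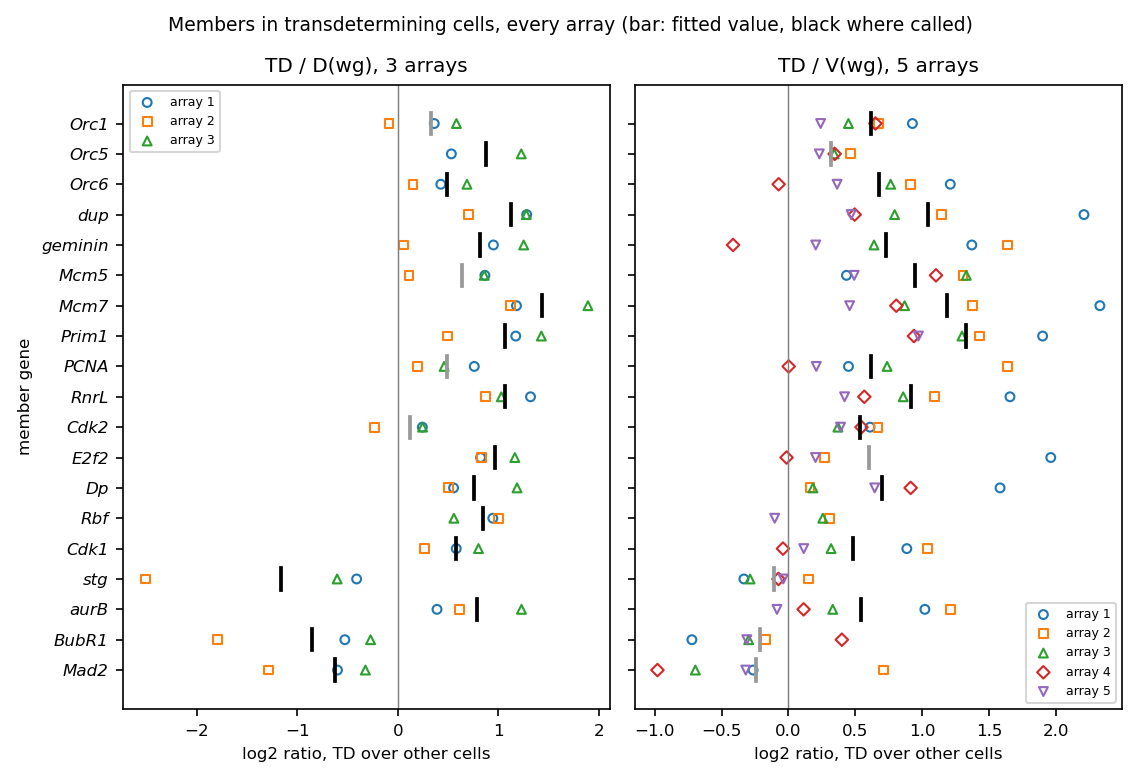
Log2 ratio of TD cells over D(wg) cells (left, 3 arrays) and over V(wg) cells (right, 5 arrays) for the 19 genes called in either comparison. Each open symbol is an array and each bar the fitted value, black where called and grey where tested and not called. Symbols of Mcm7, dup, Prim1 and RnrL all lie above 0 in both panels, while stg, BubR1 and Mad2 lie below 0 on the left with array 2 farthest out.

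Other replication genes, listed apart from the 38, were counted in the same comparisons. Of 32 tested against D(wg), 11 were higher and 2 lower, and of 32 tested against V(wg), 10 were higher and 1 lower. Prim2, the other primase subunit gene, was higher against D(wg) (1.12 ± 0.26) and V(wg) (0.81 ± 0.17), as was PolA2, a subunit gene of the polymerase that works with primase (0.94 ± 0.20 and 0.76 ± 0.15). Caf1-105, which encodes a chromatin assembly factor, stood at 0.76 ± 0.19 and 0.52 ± 0.14. The gene agt, for DNA repair, was lower in both (-0.69 ± 0.18 and -1.07 ± 0.14). Of other mitosis genes, 3 of 51 were higher and 7 lower against D(wg), and 1 of 50 higher and 1 lower against V(wg). In the comparison with D(wg) the lower ones included the cohesin gene SMC3 (-1.07 ± 0.20), the centriole kinase gene SAK (-1.03 ± 0.22) and shtd, a gene of the anaphase-promoting complex (-1.30 ± 0.26), and borr, a passenger complex gene, was higher (0.83 ± 0.17).

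Few markers of other cell types were called in these comparisons. Of the adult muscle precursor list, 1 of 4 tested was lower against D(wg) and 1 of 4 against V(wg), with array medians of -0.71 to -0.12 and -0.77 to -0.10. Of the tracheal list, 1 of 5 was higher in each comparison, with array medians of 0.48 to 0.58 and -0.19 to 0.98. Of the fat body, larval muscle and haemocyte lists, none of 3, 4 and 1 tested was called against D(wg), nor of 2, 2 and 1 against V(wg). Their part in the results was not tested.

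Between dorsal and ventral cells of one kind of disc none of these genes was called, where few probes of any gene were called. In Wg-expressing discs limma called 0 of 36 genes between D(wg) and V(wg), where 0.266 percent of all probes were called, and 7 genes had an unadjusted p under 0.05, 2 above 0 and 5 below. The median was -0.08, against -0.01 for all named genes. The lowest adjusted p, 0.11, was that of fzy, the activator gene of the anaphase-promoting complex, with -0.84, -1.24 and -0.24 on the 3 arrays (-0.80 ± 0.25, limma). In wild-type discs limma called 0 of 34 genes between D(wt) and V(wt), where 0.68 percent of probes were called, and 2 had an unadjusted p under 0.05. One of these was dap (dacapo), the inhibitor gene of cyclin E and Cdk2, at 1.16 and 0.74 on the 2 arrays with a value (1.02 ± 0.37). All 9 licensing genes tested there had fitted values above 0, between 0.07 and 0.40. The difference between the dorsal-to-ventral ratios of the 2 kinds of disc, tested directly, was called by limma for 0 of 33 genes (background 0.115 percent, of which 0.0722 higher and 0.0433 lower), with 7 at an unadjusted p under 0.05.

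The 3 comparisons among TD, D(wg) and V(wg) cells close a loop, because TD over D(wg) and D(wg) over V(wg) should add up to TD over V(wg). The sum minus the direct value was called by limma for 0 of 33 genes and 0 percent of all probes, with 1 gene at an unadjusted p under 0.05. Its median was -0.20 for the members and -0.00 for all named genes, so the direct ratios to V(wg) tended to exceed the summed ones. The largest gap was that of stg (-0.97 ± 0.59).

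In whole Wg-expressing prothoracic discs the cyclin and kinase genes CycD, Cdk4, Cdk2 and Cdk1 were higher than in the reference, and geminin, Mcm5, Rbf and CycA were lower. Against the leg reference 8 of 37 genes were called, 4 higher and 4 lower, beside 10 percent of all probes higher and 11.1 percent lower. The median was 0.02, against -0.03 for all named genes tested. The share of members called is near the background of 21.1 percent.

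CycD, the cyclin D gene, lay between 0.45 and 0.84 on the 6 arrays with a median of 0.64 (0.64 ± 0.12, n = 6, adjusted p = 0.0004 by limma), or 1.56-fold. Its kinase gene Cdk4 lay between 0.12 and 0.56 with a median of 0.44 (0.41 ± 0.12, adjusted p = 0.014). All 6 arrays were above 0 for both. Cdk1 (0.25 to 0.70, median 0.47, fitted 0.47 ± 0.12) and Cdk2 (0.06 to 1.27, median 0.51, fitted 0.54 ± 0.15) were also above 0 on every array. The Cdk2 call ended without array 3 (0.37). The cyclin gene of Cdk2, CycE, was not called by the probe with the most values (0.20 ± 0.09), while another CycE probe was lower (-0.66 ± 0.13, adjusted p = 0.015 by limma), so its probes disagreed.

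geminin was the lowest of the members, between -1.63 and -0.72 with a median of -0.84 (-0.95 ± 0.20, n = 6, adjusted p = 0.0011 by limma), and every array was below 0. Rbf lay between -1.22 and 0.02 with a median of -0.79 (-0.72 ± 0.16, adjusted p = 0.0033), and Mcm5 between -1.70 and 0.21 with a median of -0.74 (-0.83 ± 0.29, adjusted p = 0.037). CycA, the cyclin A gene, lay between -0.76 and 0.16 with a median of -0.60 (-0.43 ± 0.12, values on 5 of 6 arrays). Each of the 3 had 1 array above 0. The Mcm5 call ended without array 1, 4, 5 or 6 (-0.64 to -0.87), and that of CycA without array 1, 2 or 5 (-0.34 to -0.40). geminin, CycD, Cdk4, Rbf and Cdk1 were called whichever array was left out. Of the genes called higher in both comparisons of TD cells, none but geminin and Cdk1 was called in the whole disc, with Mcm7 at -0.04 ± 0.24, dup at 0.02 ± 0.21 and RnrL at -0.19 ± 0.20, and Prim1 at 0.36 ± 0.16. Muscle precursor markers were lower in 3 of 5 tested, with array medians of -0.86 to -0.38, and their part in these values was not tested.

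The wild-type prothoracic disc, the control for the reference, gave 2 calls in 34 genes tested, 1 higher and 1 lower, where 17.8 percent of all probes were called, 7.72 percent higher and 10 percent lower. Cdk2 was higher, at 1.29, 0.30, 0.99 and -0.15 (0.56 ± 0.18, adjusted p = 0.034 by limma), and Rbf lower, at -0.38, -1.77 and -0.78 with values on 3 of 4 arrays (-1.01 ± 0.24, adjusted p = 0.011). Both were thus called on the same side of the reference as in Wg-expressing discs. The Cdk2 call ended without array 1, 2 or 3 (0.35 to 0.67), and that of Rbf without array 2 (-0.61). A Mad2 probe other than the one with the most values was higher (0.83 ± 0.19). The member medians of the 4 arrays differed in sign, at 0.58, -0.28, 0.28 and -0.21. Array 4 was alone in its dye orientation and in the start of its slide name, so these cannot be told apart within this group. Over all probes it correlated with the other arrays at 0.22 to 0.30, and those among themselves at 0.52 to 0.73. Fat body markers were lower in 4 of 4 tested and larval muscle markers in 3 of 6, with array medians of -3.60 to -2.61 and -0.95 to -0.73, and their part was not tested.

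The difference between Wg-expressing and wild-type prothoracic discs, taken through the shared reference, was called for 1 of 34 genes, where 6.62 percent of all probes were called, 3.46 percent higher and 3.15 percent lower. CycD stood 0.92 ± 0.19 higher (95 percent interval 0.52 to 1.32, adjusted p = 0.0041 by limma) under Wg. Its wild-type values were -0.72, -0.59, -0.16 and 0.22, all below the lowest Wg-expressing array at 0.45, so the groups did not overlap. The share of all probes without overlap is not given. Cdk4 was next, with 0.55 ± 0.18 (adjusted p = 0.074). geminin, called lower than the reference under Wg, had wild-type values of -0.27, -0.11, -0.11 and -0.60, and its difference of -0.58 was not called. Slide series were read from the start of the slide name in each title, as no label names them. The 2 kinds of disc share no slide series, so slide series and kind of disc cannot be told apart here. Without array 1 or array 3 of the wild-type discs the count was 2. Of 4 fat body markers tested 3 were higher under Wg, the storage protein genes Lsp1gamma (4.30 ± 0.22) and Lsp2 (3.30 ± 0.19) and the gene Fbp2 (2.96 ± 0.31). Against the reference itself, none of 5 fat body markers was called in Wg-expressing discs (Lsp1gamma 0.29, Lsp2 -0.12, Fbp2 0.06). In wild-type discs the same 3 genes stood at -4.01, -3.42 and -2.90, so the difference lay on the wild-type side. Of 4 muscle precursor markers Him was lower (-1.07 ± 0.24), and of 5 larval muscle, 1 haemocyte and 4 tracheal markers none was called. The part of these markers in the CycD value was not tested.

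Regenerating fragments held less of several replication and mitosis genes than the reference. Of 25 genes tested 7 were lower and 3 higher, beside 24.8 percent of all probes lower and 15.8 percent higher, so the share called is close to the background of 40.5 percent. The other 13 genes had too few values on these sparse arrays. The median was -0.27, against -0.08 for all named genes tested.

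Among the lower genes, RnrL gave -0.87, -1.99, -1.89 and -1.74 on the 4 arrays (-1.62 ± 0.24, n = 4, adjusted p = 5.4e-06 by limma), or 3.08-fold lower. Cdk1 gave -1.16, -1.09, -1.20 and -0.75 (-1.05 ± 0.14, adjusted p = 1.6e-06), or 2.07-fold lower. All 4 arrays were clearly below 0 for both. Mcm6 (-0.55, -0.64, -0.26 and -0.89, fitted -0.59 ± 0.16) and RfC4, a clamp loader gene (-0.56, -1.12, -0.57 and -0.27, fitted -0.63 ± 0.17), were below 0 on every array too. Mcm7 (-1.02 ± 0.34, values on 3 of 4 arrays), aurB (-0.66 ± 0.18) and Dp (-0.65 ± 0.23) were also lower.

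The 3 higher genes were CycD, Cdk2 and stg. CycD gave 0.23, 0.74, 0.95 and 0.19 (0.53 ± 0.15, adjusted p = 0.0058 by limma), and Cdk2 0.43, 0.66, 0.10 and 0.91 (0.53 ± 0.18, adjusted p = 0.02). stg gave 1.25, 0.09, 2.01 and 0.03 (0.85 ± 0.32, adjusted p = 0.034), so arrays 1 and 3 carried it, and it was not called without array 1 (0.69) or array 3 (0.46). Mcm5 showed how far these arrays could part, at -1.78, -1.34, 1.72 and -1.13, and was not called (-0.63 ± 0.35).

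The count of 10 fell to 5 without array 2, when Mcm7 (-0.88), RfC4 (-0.50), aurB (-0.54), Dp (-0.49) and Cdk2 (0.45) were not called. Without array 3 the same held for Mcm7 (-0.66), aurB (-0.51), Dp (-0.60), CycD (0.36) and stg. RnrL and Cdk1 alone were called under every alternative, and with the arrays brought to a common spread, or fitted alone without the dye term, they were the 2 members called. Of other replication genes 6 of 17 tested were lower and none higher, among them chif, a regulator gene of the kinase Cdc7 (-1.32 ± 0.13), PolE2 of the leading strand polymerase (-1.24 ± 0.24) and Cdc45 of the helicase (-0.95 ± 0.24). Of other mitosis genes 4 of 32 were higher and 5 lower. Muscle precursor markers were higher in 1 of 3 tested, with array medians of 0.51 to 0.81, and their part in these results was not tested.

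**Figure D3:**
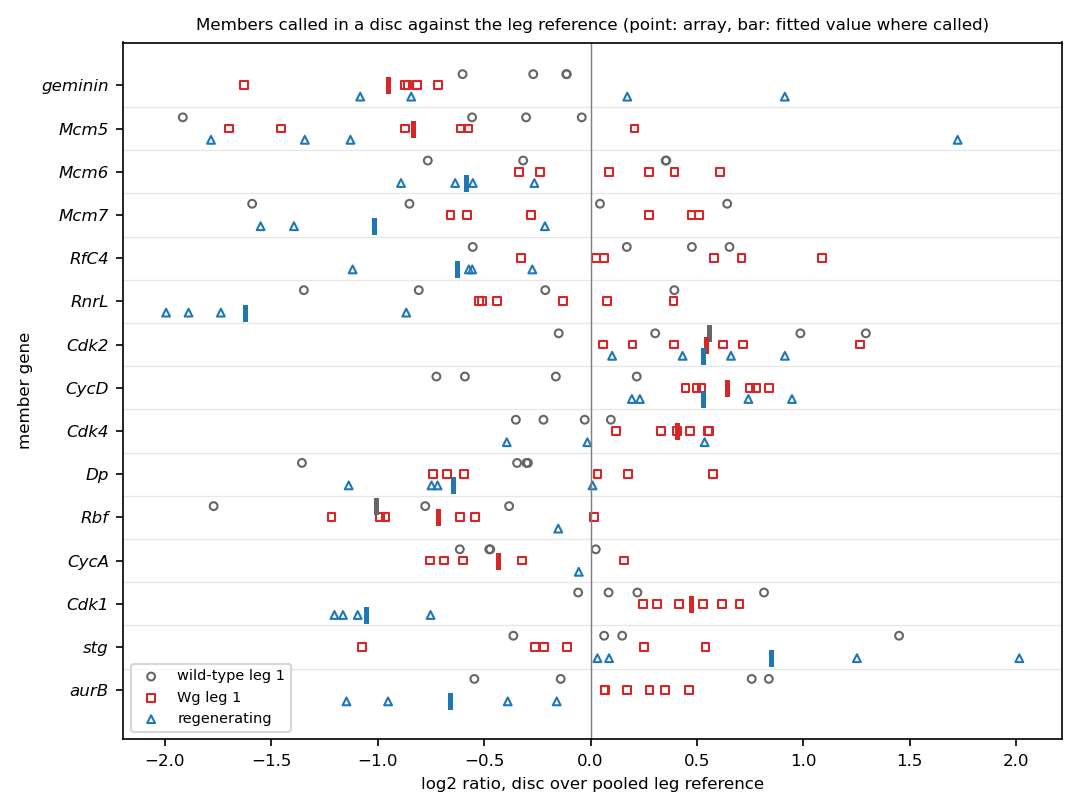
Log2 ratio to the pooled leg reference on every array for the 15 genes called in wild-type prothoracic discs (grey circles, 4 arrays), Wg-expressing prothoracic discs (red squares, 6 arrays) or regenerating fragments (blue triangles, 4 arrays). Bars give the fitted value where called. Cdk1 lies at -1.20 to -0.75 in fragments and at 0.25 to 0.70 in Wg-expressing discs, and CycD lies above 0 in both.

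Set against the wild-type prothoracic disc through the reference, regenerating fragments were lower in 4 of 25 genes and higher in 1, beside 14.1 and 5.61 percent of all probes (19.7 percent in all). The lower genes were Cdk1 (-1.27 ± 0.21, adjusted p = 0.00011 by limma), RnrL (-1.13 ± 0.34), aurB (-0.82 ± 0.26) and RfC4 (-0.76 ± 0.25), and CycD was higher (0.81 ± 0.21). The 4 fragment arrays of Cdk1 lay below all 4 wild-type arrays, which ran from -0.06 to 0.82. How many of all probes were separated in this way is not given. The count was 1 without array 3 of the fragments (Cdk1), 2 without array 1 or array 3 of the wild-type discs and 3 without array 2 of the fragments. Segment, sex and culture differ between these samples and cannot be told apart. Of 3 muscle precursor markers tested Mef2 was higher in fragments (2.05 ± 0.47), and of 3 tracheal markers verm was higher (1.03 ± 0.37), while neither of 2 larval muscle markers was called and no fat body or haemocyte marker could be tested. Their part in these values was not tested.

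Wg-expressing discs differed from regenerating fragments in 5 of 25 genes, all higher under Wg, beside 27 percent of all probes called, 18.2 percent higher and 8.83 percent lower. They were Cdk1 (1.52 ± 0.19, 95 percent interval 1.14 to 1.90, adjusted p = 9e-07 by limma), RnrL (1.43 ± 0.31), RfC4 (0.99 ± 0.23), aurB (0.89 ± 0.24) and Mcm6 (0.72 ± 0.21). The arrays of the 2 groups did not overlap for Cdk1, RnrL or aurB. The RnrL values under Wg ran from -0.52 to 0.39 and those in fragments from -1.99 to -0.87. The share of all probes without overlap is not given here. All 5 were called whichever array was left out. The groups share no slide series, which again cannot be told apart from the kind of tissue. Of 3 muscle precursor markers tested Mef2 (-2.51 ± 0.43) and zfh1 (-0.52 ± 0.18) were lower under Wg, of 2 larval muscle markers Mlc2 was higher (1.67 ± 0.50), and of 3 tracheal markers serp was lower (-0.82 ± 0.30). Fat body and haemocyte markers could not be tested, and the part of the others was not tested.

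Wing and leg discs differed little in these genes, with fitted values mostly on the wing side of 0. Of 34 genes tested 1 was higher in wing discs and none lower, where 4.5 percent of all probes were called, 2.53 percent higher and 1.97 percent lower. The fitted value was above 0 for 31 of 34 genes, with a median of 0.21, against 2658 of 5240 named genes with a median of 0.00. The median of the measured members was above 0 on 9 of 9 arrays, between 0.13 and 0.30. Over all probes, array 1 against segment 1 correlated at only 0.09 and 0.12 with the other arrays of that segment, which correlated at 0.66. Without it the median of the fitted values was 0.22. At an unadjusted p under 0.05 there were 11 genes, all above 0, again without a share of all probes at that threshold.

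The gene called was dpa, which encodes the helicase subunit Mcm4, with values between -0.01 and 0.68 on 8 arrays and a median of 0.51 (0.42 ± 0.11, adjusted p = 0.039 by limma). The call ended without array 1, 2 or 3 against segment 1 or array 1 or 2 against segment 2 (0.35 to 0.44). Without array 1 or 3 against segment 3 dpa had too few values to be tested. It was not called either on the slides of series 5 alone (0.43). Mcm6 lay between 0.15 and 0.50 with a median of 0.36 (0.33 ± 0.11, adjusted p = 0.084), and Orc1, Orc2 and RfC4 likewise had 9 of 9 arrays above 0. Of the licensing genes 11 of 12 had fitted values above 0, the exception being geminin (-0.09 ± 0.17). The range of the arrays of each gene is plotted for wing against leg. Genes of the G1 to S step were closer to 0, with a median of 0.08, and Cdk1 stood at 0.01 ± 0.10.

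**Figure D4:**
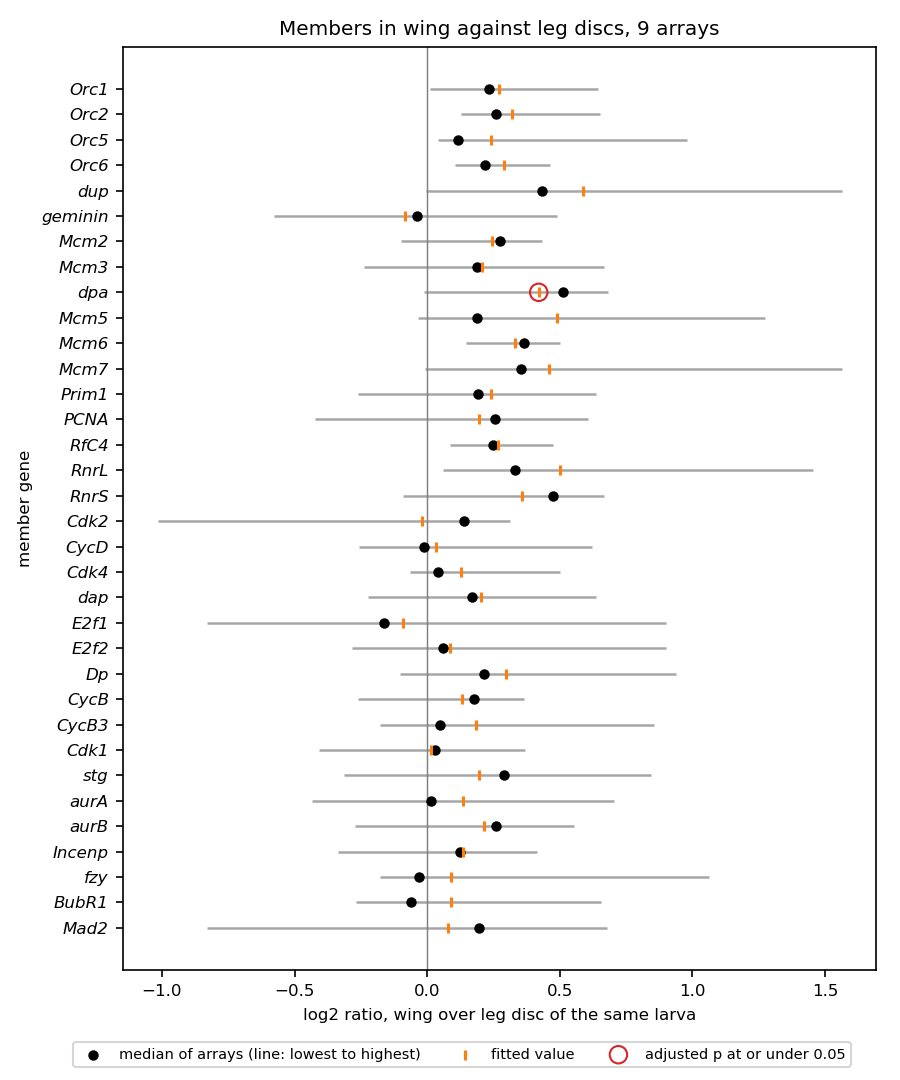
Log2 ratio of wing over leg disc for the 34 genes tested on 9 arrays. The grey line runs from the lowest to the highest array, the black point is the median, the orange tick the fitted value, and the red circle marks the gene called, dpa. Replication genes in the upper rows have medians to the right of 0 except for geminin.

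With the arrays brought to a common spread 12 of 34 members were called, all higher in wing discs. Over all probes that setting called 593 of 6401, 312 higher and 281 lower. With values required on every array no member was called, beside 178 of 4526 probes. Of other replication genes 2 of 28 tested were higher (Caf1-105, 0.52 ± 0.12, and the histone chaperone gene asf1, 0.35 ± 0.10) and none lower, with a median of 0.14. Of other mitosis genes limma called 0 of 51, with a median of 0.09. Muscle precursor markers were higher in 1 of 4 tested, with array medians of -0.10 to 1.11, and their part was not tested. Between the 3 leg segments, compared through the wing disc, limma called none of 35, 34 and 35 genes (0.014, 0 and 0 percent of all probes), with 0 at an unadjusted p under 0.05 in each.

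**Figure D5:**
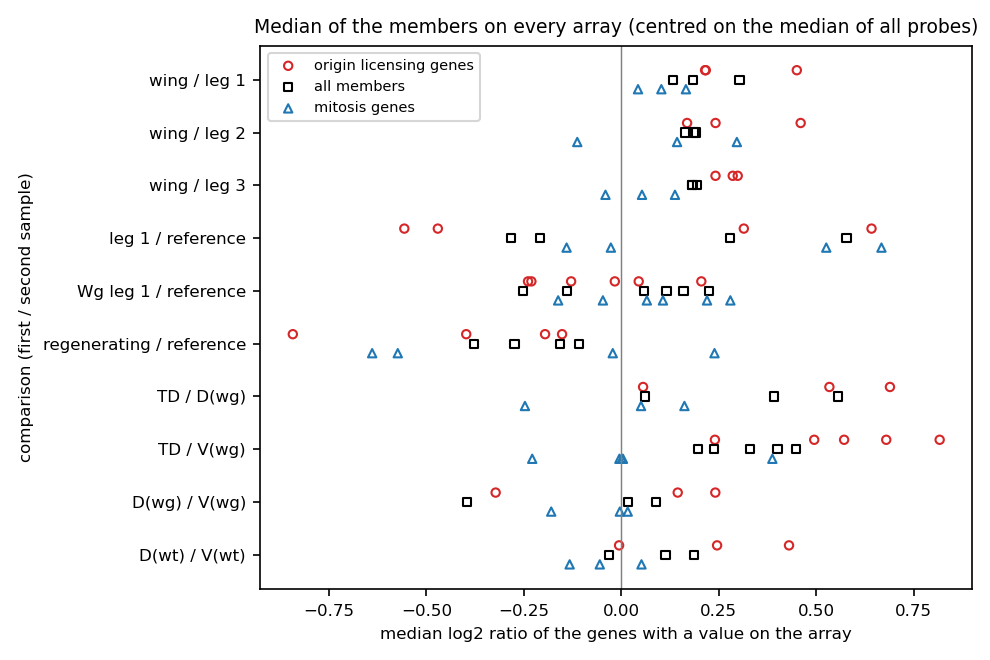
Median log2 ratio on each array of all measured members (black squares), of the licensing genes (red circles) and of the mitosis genes (blue triangles), in 10 groups of arrays (rows). The black squares lie above 0 on all 9 wing arrays and all 8 arrays of TD cells against D(wg) or V(wg), and below 0 on all 4 arrays of regenerating fragments.

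The comparison of TD cells with dorsal wild-type cells has no settled direction. As labelled, TD cells held far less transcript of Ilp8 (-6.71 ± 1.32) and w (-6.91 ± 1.10), and 1 wg probe stood at -4.73 ± 0.39. The first 2 genes were higher in Wg-expressing discs than in the reference (5.70 ± 0.72 and 5.85 ± 0.61), and wg was the transgene of the TD cells. Across the probes shared by both, the fitted values correlated at -0.54 with those of Wg-expressing discs, a description over probes that share arrays and are not independent. Both arrays had the same dye orientation. Sizes are therefore given without direction. Of 32 genes tested 3 were called, where 9.4 percent of all probes were called, 4.07 percent on the side of geminin and 5.33 percent on the other. geminin differed by 1.96 ± 0.36 (adjusted p = 0.001 by limma), with arrays at 2.59 and 1.71 in size, Orc1 by 0.86 ± 0.24 in the opposite direction and Cdk1 by 0.69 ± 0.21, also opposite to geminin. With the sign of both arrays turned, which also changes the dye term, geminin was the single call (2.35 in size, adjusted p = 0.00011). As labelled it was not called without array 1 (1.52 in size), when no member was, and it was the single call without array 2.

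By the probe with the most values, 13 genes were called in none of the 8 comparisons. They were Orc2, Mcm2 and Mcm3, RnrS, CycE, dap, E2f1, CycB and CycB3, and the mitosis genes aurA, Incenp, polo and fzy. Another CycE probe was called lower in Wg-expressing discs than in the reference, as given above. Of the 8 comparisons Mcm3 was tested in wing against leg discs alone (0.21 ± 0.10), because it had too few values elsewhere.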

How the data were processed

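Amplified RNA of 2 samples was compared on each of 39 spotted two-colour arrays, in 11 groups of 2 to 6 arrays. The deposited log2 ratios put the sample named second over the one named first, per the labels. How the authors filtered and normalised them, and the base of the logarithm, are not given in the sources used here. Every ratio was turned to first over second and centred on its array's median. A probe was named through its CG number and the RefSeq gene table of assembly Release 6 plus ISO1 MT. For genes with several probes the one with the most values stands for the gene.

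A linear model per probe, over all 39 arrays, had a term for each group and another for dye orientation. limma 3.58.1 in R 4.3.3 moderated the variances (prior degrees of freedom 3.48). Probes with values on at least 2 arrays and 66.7 percent of each group's arrays were tested, and Benjamini-Hochberg adjustment ran over all of them. The fit was tested on simulated data. The smallest group has 2 arrays, and precision is limited by their number. Dorsal, ventral and TD samples pool several discs, and nothing says that the arrays of a group are from separate cultures or larvae beyond the single-larva wing and leg discs, so p-values measure the spread between arrays, which may be partly technical. A prothoracic leg disc array (array 3) carries the slide name of array 2 in its description, but its values differ, and both were kept.

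Alternatives were the values as deposited, a common spread for all arrays, the arrays of a comparison alone without the dye term, complete probes only, averaged probes, slide series alone and each array left out. Turning the sign of TD against D(wt) was chosen after seeing the data. The 38 genes and the lists of other replication genes, other mitosis genes and cell type markers were chosen with earlier results of these data known. Genes are named where called in a comparison, with uncalled members of the same role for contrast and the called genes of the other lists with the lowest adjusted p or largest values. Promoter and probe sequences were not analysed here.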

Additional observations from a re-analysis of the deposited data

Results flagged for a closer look

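In 8 of 125 groups of 4 to 6 values of a member gene, 1 array stood apart from the rest by Dixon's test at the 95 percent level. Chance gives this in about 1 of 20 groups. Among wild-type prothoracic discs array 2 was low for Dp, the partner gene of E2F (-1.36, others -0.35 to -0.29), and for fzy (-0.68, others 0.25 to 0.38). In Wg-expressing discs array 3 was low for geminin (-1.63, others -0.87 to -0.72), which was called lower without it too. Array 6 of these discs was low for polo (-0.21, others 0.35 to 0.45). In TD cells against V(wg), array 1 was high for E2f2 (1.96, others -0.01 to 0.27) and for the cyclin gene CycB3 (1.90, others -0.54 to 0.11). Array 2 of that comparison was low for CycA (0.18, others 0.34 to 0.36) and high for Incenp, a passenger complex gene (0.082, others -0.31 to -0.20). Neither E2f2, CycB3, CycA nor Incenp was called there.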

How the results depend on the processing

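No paired analysis was possible because the labels give no replicate numbers, so the array numbers only name arrays. Outside TD against D(wt), no called member changed sign under an alternative in which it was tested. Medians near 0 did. That of wild-type prothoracic discs went from -0.02 to 0.03 on the arrays alone and to 0.21 and 0.05 without arrays 2 and 4, that of Wg-expressing discs from 0.02 to -0.04 without array 3, and that of D(wg) against V(wg) from -0.08 to 0.09 without array 2. "On the arrays alone" means here that the dye term was left out too. Of the counts of called members, those for wild-type prothoracic discs went from 2 to 1 with a common spread and to 0 on the arrays alone (0 to 3 with an array left out). Wing against leg went from 1 to 12 with a common spread, 2 on the arrays alone, 0 with values on every array and 0 on slides of series 5 (0 to 1 with an array left out). TD against D(wg) went from 15 to 7 on the arrays alone (3 to 7), TD against V(wg) from 13 to 5 (4 to 13), and TD against D(wt) from 3 to 6, or to 1 with the sign turned (0 to 1). D(wt) against V(wt) went from 0 to 1 with a common spread and 1 on the arrays alone. Regenerating fragments went from 10 to 2 under both (5 to 11), and against wild-type discs from 5 to 1 under both (1 to 6). Wg-expressing discs against fragments went from 5 to 3 with a common spread (5 to 7), Wg-expressing discs against the reference gave 6 to 9, and against wild-type discs 1 to 2, with an array left out. Other counts stayed within 1.5 times. The cause was not tested, beyond fewer arrays or probes where the alternative itself removes them.

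Over all probes, fitting the arrays alone without the dye term took the calls from 1406 to 396 for wild-type prothoracic discs, from 1172 to 383 for TD against V(wg) and from 1575 to 431 for fragments. A common spread took wing against leg from 288 to 593 and fragments to 517. Without centring, the higher share of calls in TD against D(wt) went from 43.3 to 58.4 percent. The sparse arrays of fragments left 13 members untested.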
